A study of Mus musculus with 8 samples.

Results

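The genes described here build, coat and break down the lipid droplet, the store of triglyceride and cholesteryl ester in the cell. They were chosen by function, with earlier results of these data known, and are 10 of the 48795 genes in the files. The coat proteins are *Plin1*, *Plin2* and *Plin3*, and *Hilpda* is a lipase inhibitor. *Dgat1*, *Dgat2* and *Soat1* are the storage acyltransferases, and *Pnpla2*, *Mgll* and *Nceh1* the neutral lipases. The study asked how the lipid-presenting molecule CD1d shapes macrophage lipid metabolism and responses to Toll-like receptor ligands. For the data used here, polyadenylated RNA of macrophages from the peritoneal cavity (pMacs) of 4 WT and 4 CD1d-KO mice was sequenced. Each mouse gave 1 library, and the labels name no stimulation. GEO's design text gives the WT mice as C57BL/6, and the paper describes the controls for sequencing as littermates, so the background that the genotypes share is not fully stated. The CD1d-KO mice lacked CD1d in every cell and so also lacked NKT cells, which limits them as a model of CD1d loss in macrophages alone. The methods do not say whether the sequenced CD1d-KO mice came from a CD1d flox line crossed to PGK-Cre, a Cre active in all cells, or from B6.129S6-Del(3Cd1d2-Cd1d1)1Sbp/J. All mice were adults matched for age and sex. Replicates were numbered 1, 2, 3 and 5 in both genotypes, and libraries with the same number were compared as 4 pairs.

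Cells that take up fatty acids and cholesterol esterify the excess and store the esters in droplets within a monolayer of phospholipid and coat proteins. In macrophages SOAT1 makes the cholesteryl esters that fill foam cells, and NCEH1 and the lysosomal acid lipase hydrolyse them again, while DGAT1 and DGAT2 add the last acyl chain of triglyceride and PNPLA2, also called ATGL, removes the first. PLIN2 is the coat protein typical of macrophage droplets, and PLIN1 that of adipocytes.

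Each library held between 13698864 and 19059432 expected counts. *Cd1d1*, the gene for CD1d, had 68.2, 175, 96.1 and 141 normalized counts (counts scaled to the mean library size) in WT replicates 1, 2, 3 and 5 and 1.14, 0 and 1.1 in CD1d-KO replicates 2, 3 and 5. The library labelled CD1d-KO replicate 1 held 60.7, so in *Cd1d1* it went against its label. In *S100a8* the same library had 84.2 and lay with the other CD1d-KO libraries, away from WT (44.5 to 51.6). The reason was not tested. Comparisons below follow the labels, and each tested storage gene is also given without replicate 1. All 6 macrophage markers on a list of markers were read in every library, with summed normalized counts of 341811 to 381851 in WT and 283195 to 362535 in CD1d-KO pMacs. *Adipoq*, *Lep* and *Adrb3* were at 0 in every library, and the 6 adipocyte markers summed to at most 5.5. Summed B cell markers (6 genes) ranged from 2866 to 7760 in WT and from 1865 to 12945 in CD1d-KO libraries. Of 4 neutrophil markers, *S100a8* alone had enough counts to test, at 44.5 to 51.6 normalized counts in WT and 81.1 to 90.1 in CD1d-KO libraries. *Ly6g* was at 0 in every library, *S100a9* had at most 1 read and *Retnlg* at most 3. A difference in neutrophils would therefore rest on *S100a8* alone. The part of B cells and neutrophils in the results was not tested.

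The promoters of *Plin2*, *Hilpda* and *Nceh1* are shown because in normalized counts these 3 genes had the highest value of both genotypes in replicate 3. In TPM this held for *Hilpda* and for *Nceh1*, whereas *Plin2* was highest in replicate 5 of the CD1d-KO libraries (243 TPM, against 214 in replicate 3). Each window runs from 250 bases before to 50 bases after a RefSeq transcription start on GRCm38.p6 and is written 5′ to 3′ on the strand of the gene. Capitals mark the core of the hypoxia response element, ACGTG or GCGTG, on either strand. The windows are chr4:86670010-86670309 on the minus strand for *Plin2*, chr6:29272376-29272675 on the plus strand for *Hilpda* and chr3:27182754-27183053 on the plus strand for *Nceh1*. *Hilpda* had a pair of windows, and the one with more cores is printed.
*Plin2*: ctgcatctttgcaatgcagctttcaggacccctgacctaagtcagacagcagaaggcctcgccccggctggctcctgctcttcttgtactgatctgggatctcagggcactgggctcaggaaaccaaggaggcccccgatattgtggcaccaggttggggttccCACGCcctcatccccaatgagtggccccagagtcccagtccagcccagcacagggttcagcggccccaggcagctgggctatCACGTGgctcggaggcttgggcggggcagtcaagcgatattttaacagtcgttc
*Hilpda*: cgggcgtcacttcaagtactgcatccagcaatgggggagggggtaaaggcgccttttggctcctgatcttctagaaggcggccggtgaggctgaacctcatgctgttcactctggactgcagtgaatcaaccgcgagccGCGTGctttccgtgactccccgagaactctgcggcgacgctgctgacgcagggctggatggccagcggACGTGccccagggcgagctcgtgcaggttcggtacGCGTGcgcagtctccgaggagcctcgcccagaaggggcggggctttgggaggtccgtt
*Nceh1*: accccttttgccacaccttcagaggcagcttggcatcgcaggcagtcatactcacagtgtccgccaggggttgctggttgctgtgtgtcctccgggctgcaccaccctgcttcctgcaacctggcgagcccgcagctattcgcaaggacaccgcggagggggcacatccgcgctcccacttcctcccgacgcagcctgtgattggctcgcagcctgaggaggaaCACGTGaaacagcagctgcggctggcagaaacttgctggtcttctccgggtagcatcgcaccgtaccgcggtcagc
The 8 genes with a window had 10 windows, since *Hilpda* and *Mgll* had 2 each. The core occurred in 7 of the 10 (those of *Plin2*, *Hilpda*, *Soat1*, *Mgll* and *Nceh1*) and in 43.8% of the 32851 mouse windows. By gene, a core was found in 5 of the 8, and the share of all genes was not counted. In the printed *Hilpda* window the core began 111, 43 and 8 bases before the start. The *Hilpda* windows overlap, and the site at 111 bases is also the single core of the other window, so it was counted in both. In *Plin2* the core began 86 bases before the start and again within an E-box, CACGTG, whose first base was 4 bases before the start. In *Nceh1* it was found within an E-box alone, whose first base was 26 bases before the start. The E-box reads the same on both strands and overlaps the core. It was also found in 1 of the *Mgll* windows, which makes 3 of the 10 windows beside 7.15% of all windows. The half-site of nuclear receptors, AGGTCA, was found in 1 of the 10 windows, that of *Plin2* 218 bases before the start, and in 16.3% of all windows. These are matches of letters, and binding was not measured.

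Per transcript length, pMacs held most *Plin2* and *Soat1* transcript of the 10 genes. In TPM, a level scaled for transcript length and library depth, *Plin2* had 153 ± 33.7 in WT and 173 ± 65.5 in CD1d-KO pMacs (SD, n = 4 each). *Soat1* had 117 ± 6.76 and 115 ± 19.0 TPM. *Plin2* was above *Soat1* in 6 of 8 libraries, in all 4 WT but in 2 of 4 CD1d-KO libraries, so the order of these neighbours was not the same in every mouse. *Pnpla2* followed with 71.2 ± 11.3 and 69.3 ± 11.5 TPM, below *Soat1* and above *Hilpda* in all 8 libraries. By mean TPM these 3 leading genes stood above 94.6%, 92.6% and 87.3% of the tested genes.

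*Hilpda*, *Plin3*, *Nceh1* and *Dgat1* formed a middle group whose order changed between libraries. Their mean levels in WT pMacs were 19.3 ± 13.8, 17.4 ± 2.09, 14.4 ± 5.16 and 15.3 ± 3.7 TPM (SD, n = 4). In CD1d-KO pMacs they were 23.5 ± 11.5, 18.4 ± 3.11, 17.5 ± 2.63 and 15.1 ± 2.34 TPM. *Hilpda* was above *Plin3* in 3 of 8 libraries, *Plin3* above *Nceh1* in 6 and *Nceh1* above *Dgat1* in 5, so these neighbours did not differ beyond the spread between mice. *Dgat2* was lower than *Dgat1* in all 8 libraries, with 1.29 ± 0.52 TPM in WT and 1.35 ± 0.612 in CD1d-KO pMacs. The *Dgat1* level was 5.79 to 25.3 times that of *Dgat2*. *Mgll* reached at most 0.24 TPM and *Plin1* at most 0.12 TPM.

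**Figure D1:**
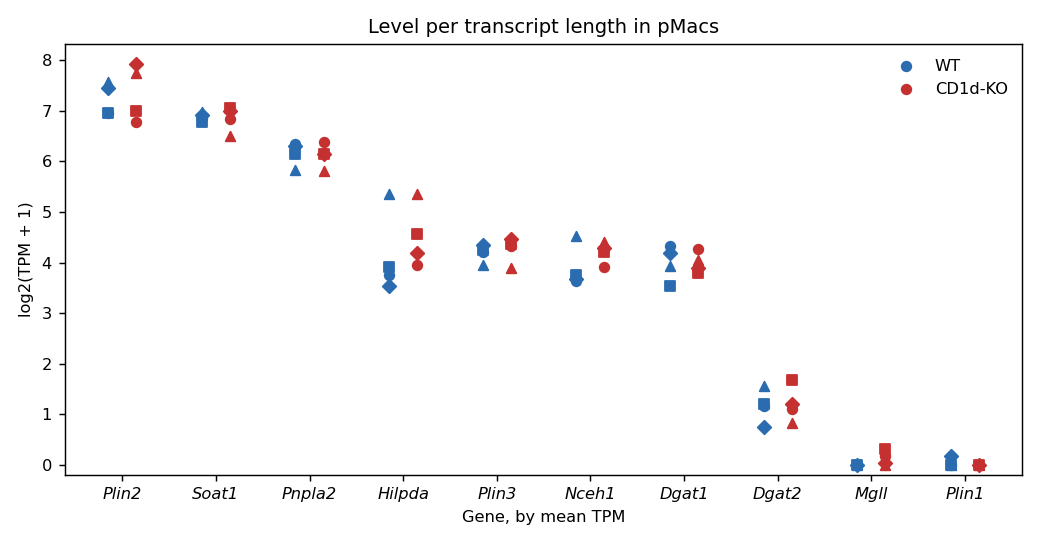
Level per transcript length of the 10 genes on a log2(TPM + 1) axis, ordered by mean TPM, with 1 point per library (blue WT, red CD1d-KO, 4 libraries each; circle, square, triangle and diamond for replicates 1, 2, 3 and 5). *Plin2*, *Soat1* and *Pnpla2* lie at the top, *Dgat2* lies well below *Dgat1*, and *Mgll* and *Plin1* lie at or near 0.

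Between the genotypes, the ranges of the 4 WT and the 4 CD1d-KO libraries overlapped for each of the 8 tested genes. The share of all tested genes with such an overlap was not counted, so it is not known whether the overlap is particular to the storage genes. *Plin1* and *Mgll* had too few reads to compare. Of the 8 genes with enough counts to test, 0 were called by the quasi-likelihood test of edgeR, with the thresholds of a fold change above 1.5 and an adjusted p under 0.01, where 5 of 13040 tested genes were called (0.0383%). This fit did not call *Cd1d1* either (log2 fold change -3.42, adjusted p = 0.233 in edgeR), so the lack of a call does not show that a gene is unchanged. DESeq2 with the same covariates gave 0 calls among the 8, against 0.873% of the 11802 genes with an adjusted p. At an unadjusted p under 0.05 in edgeR, *Hilpda* and *Nceh1* were higher in CD1d-KO pMacs (background 7.35% of tested genes) and 0 were lower (background 5.01%). *Plin3* and *Hilpda* were higher in CD1d-KO in all 4 pairs, as were 10.6% of tested genes, and *Soat1* was lower in all 4 pairs, as were 10.1%. For *Soat1*, pairs 1, 2 and 5 differed by at most 0.014 on the log2 scale. The median log2 fold change of the 8 genes, CD1d-KO over WT, was 0.12 (range -0.08 to 0.37), beside 0.0 over all tested genes, and the median size of the change was 0.12 in both. For 6 of the 8, the 95% interval of the difference lay within 1.5-fold in both directions, which held for 62.9% of all tested genes. The 2 others were *Hilpda* and *Dgat2*. In bulk RNA, fewer cells of a type and less RNA per cell cannot be told apart.

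**Figure D2:**
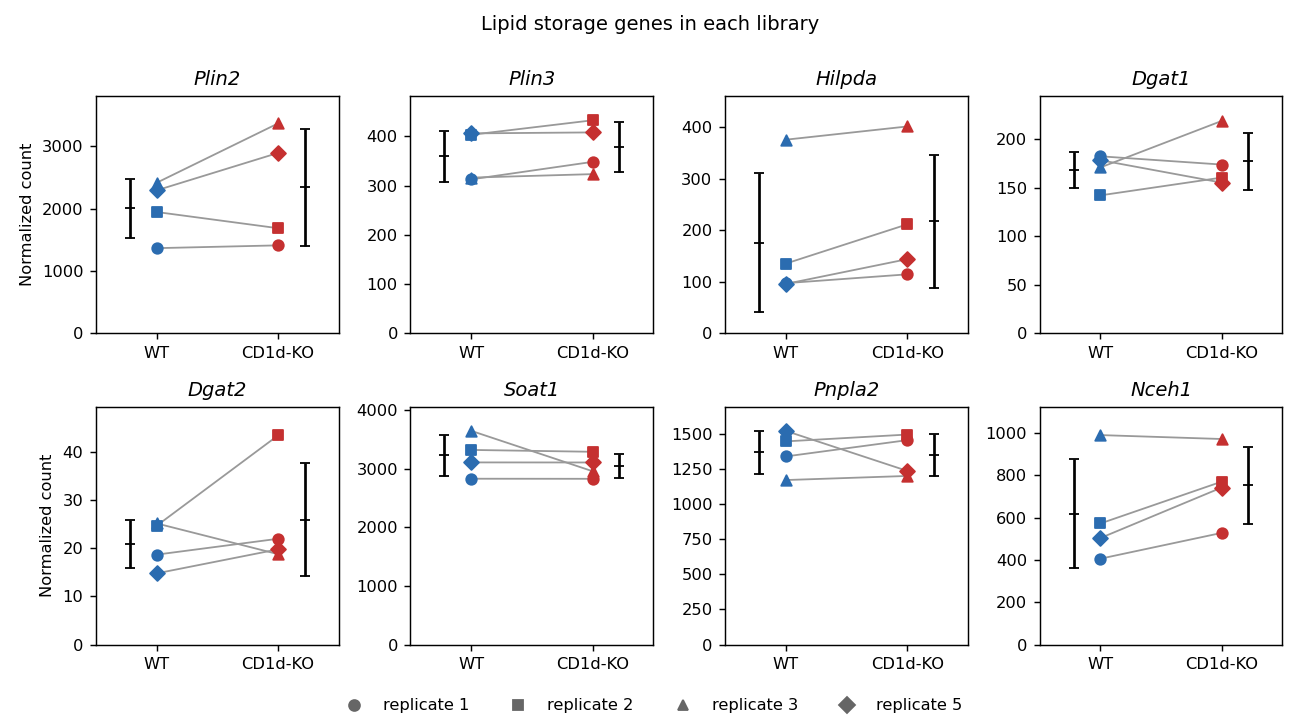
Normalized counts of the 8 tested genes in each library (vertical axes from 0, different scales). Grey lines join the WT and CD1d-KO library of the same replicate number, and the black bars give the mean and SD of 4 libraries. The groups overlap in every panel, and replicate 3 (triangles) is the highest of both genotypes for *Plin2*, *Hilpda* and *Nceh1*.

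Of the coat proteins, *Plin2* (ENSMUSG00000028494, chromosome 4 from 86648386 to 86670060 on GRCm38, minus strand) had the most counts. Its normalized counts were 1367, 1947, 2416 and 2295 in WT replicates 1, 2, 3 and 5 and 1412, 1687, 3369 and 2896 in the CD1d-KO replicates of the same numbers. Replicates 3 and 5 were high and replicate 1 low in both genotypes, and CD1d-KO replicates 3 and 5 lay above every WT library. The means were 2006 ± 470 and 2341 ± 941 (SD, n = 4), with a log2 fold change of 0.17 (SE 0.11, 95% interval -0.10 to 0.43, adjusted p = 0.617 in edgeR), and 3 of 4 pairs were higher in CD1d-KO. Without replicate 1 it was 0.21, and single pairs moved it from 0.06 (without replicate 3) to 0.29 (without replicate 2). The mean level of pair 3, the highest, was 2.05 times that of pair 1, the lowest. This is a range over 4 pairs, so it is not a like measure for the difference between genotypes. The summed markers of small peritoneal macrophages and dendritic cells (5 genes, 4 of them tested, none at 0 in every library) were also highest in replicates 3 and 5, at 1778 and 2034 in WT and 1478 and 2418 in CD1d-KO against 861 to 1371 in the other 4 libraries. *Irf4* gave the largest part of this sum in every library, at 1055 and 1241 in WT and 938 and 1645 in CD1d-KO replicates 3 and 5. Like the summed B cell markers, *Irf4* was lowest in CD1d-KO replicate 2 (530) and highest in CD1d-KO replicate 5. The sum therefore follows mainly 1 gene, and the single markers did not all follow it. *Cd209a* (271 against 75.8) and *Flt3* (9.4 against 4.55) were higher in CD1d-KO replicate 3 than in CD1d-KO replicate 1, while *Ccr2*, *Itgax* and *Irf4* were lower. The part of small macrophages, dendritic cells or B cells in the *Plin2* level was not tested.

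*Plin3* (ENSMUSG00000024197, chromosome 17 from 56277476 to 56292873, minus strand), a coat protein that moves between cytosol and droplet, varied least of the coats. It had 312, 403, 316 and 406 normalized counts in WT replicates 1, 2, 3 and 5 and 348, 432, 323 and 408 in CD1d-KO. In each pair the CD1d-KO library was the higher one, by at most 0.15 on the log2 scale. The log2 fold change was 0.08 (SE 0.07, 95% interval -0.10 to 0.25, adjusted p = 0.749 in edgeR), and 0.047 without replicate 1. Pair 2 stood only 1.3 times above pair 3, the lowest.

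*Plin1* (ENSMUSG00000030546, chromosome 7 from 79720218 to 79732903, minus strand), the coat of adipocyte droplets, could not be compared. It had 2 reads in WT replicate 5 and 0 in the other 7 libraries. These values are below the limit of 3 counts that a count of 0 allows, so neither a level nor a difference was detectable at this depth, and no fold is given. The limit, 3 counts of the library total, was 0.157 to 0.219 in CPM, the count scaled by library total alone, and covers counting error only.

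*Hilpda* (ENSMUSG00000043421, chromosome 6 from 29272488 to 29275446, plus strand) encodes a small droplet protein that binds PNPLA2 and inhibits it, and is known as a target of hypoxia-inducible factors. Its normalized counts were 97.4, 135, 376 and 95.9 in WT replicates 1, 2, 3 and 5 and 114, 212, 402 and 144 in CD1d-KO. Replicate 3 stood far above the rest in both genotypes, and in each pair the CD1d-KO library was higher. The means were 176 ± 134 and 218 ± 129 (SD, n = 4). The fold change was 1.3 (95% interval 1.06 to 1.59), which is 0.37 on the log2 scale (SE 0.13). It did not pass the threshold (adjusted p = 0.277 in edgeR and 0.524 in DESeq2). The pairs differed in size, with log2 ratios of 0.23, 0.64, 0.095 and 0.58 in pairs 1, 2, 3 and 5. Without replicate 1 the log2 fold change was 0.42 and without replicate 3 it was 0.49.

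The spread of *Hilpda* between pairs, 1.86 on the log2 scale or 3.63-fold from pair 1 to pair 3, was wider than that of 95.7% of tested genes. For the 8 tested genes the median of this spread was 0.63, beside 0.47 over all tested genes. Replicate 3 had the highest value of both genotypes for 3 of the 8 genes (*Plin2*, *Hilpda* and *Nceh1*), and for 17.6% of all tested genes. In log2 CPM, *Hilpda* stood 1.14 and 1.24 above its mean in the WT and CD1d-KO libraries of replicate 3, *Nceh1* 0.59 and 0.57 and *Plin2* 0.22 and 0.70. The summed markers of large peritoneal macrophages (5 genes, all tested, none at 0 in every library) were 14219 and 14500 in replicate 3 and 14450 to 20709 in the other 6 libraries. Within the sum, *Gata6* (347 in WT and 458 in CD1d-KO) and *Alox15* (5521 and 5124) were lowest in replicate 3 of both genotypes. *Icam2*, *Timd4* and *Cd5l* were not lowest there in both. The part of these cells in the levels was not tested.

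Across the 8 libraries, *Hilpda* correlated with *Nceh1* (r = 0.94), more than with *Plin2* (r = 0.59), and *Plin2* correlated with *Nceh1* (r = 0.71). With *Pnpla2*, the lipase its protein inhibits, *Hilpda* had r = -0.68. These values describe 8 libraries in 4 pairs, which share the high replicate 3, and were not tested. Of 9941 genes with a mean of at least 50 normalized counts, those most like *Hilpda* by Pearson correlation of log2 levels were *Mdfic* (r = 0.992), *Nfxl1* (0.987) and *Ptp4a1* (0.987). Those most like *Plin2* were *Stk39* (0.975), *H2-M3* (0.974) and *1700047I17Rik2* (0.974). *Mdfic* had 3501 and 3933 normalized counts in WT and CD1d-KO replicate 3 and 1648 to 2661 in the other 6 libraries, so it shared the high replicate 3.

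**Figure D3:**
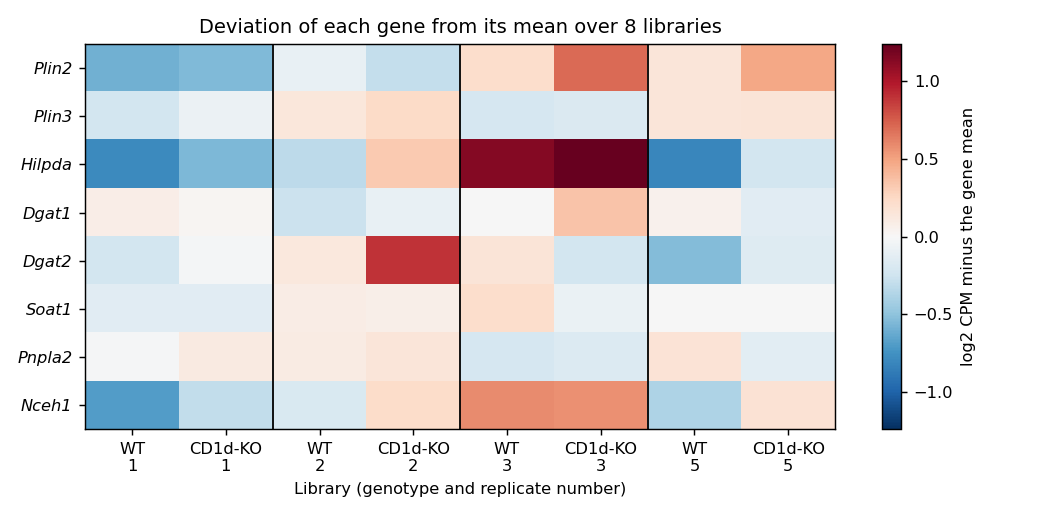
Deviation of each tested gene from its own mean over 8 libraries, in log2 CPM, with red above and blue below the mean. Columns are libraries, grouped in pairs by replicate number. *Hilpda* and *Nceh1* are red in both libraries of replicate 3, and *Plin2* is blue in both libraries of replicate 1 and red in replicates 3 and 5.

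Of the acyltransferases, *Soat1* (ENSMUSG00000026600, chromosome 1 from 156424525 to 156474331, minus strand), which esterifies cholesterol, was the most abundant and the steadiest. Its normalized counts were 2830.2, 3322, 3648 and 3109 in WT replicates 1, 2, 3 and 5 and 2829, 3290.0, 2958 and 3108 in CD1d-KO. Pairs 1, 2 and 5 held nearly equal values, and the CD1d-KO library was clearly lower in pair 3 alone, by 0.30 on the log2 scale. In TPM the CD1d-KO library was higher in pairs 2 (132 against 109) and 5 (126 against 120) and lower in pairs 1 and 3. The log2 fold change was -0.08 (SE 0.08, 95% interval -0.26 to 0.10, adjusted p = 0.747 in edgeR), -0.11 without replicate 1 and -0.0044 without replicate 3. One annotated gene on the other strand, *Gm37648*, lies within *Soat1*, and the strand setting of the counting is not given in the sources used here, so reads of both cannot be told apart.

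*Dgat1* (ENSMUSG00000022555, chromosome 15 from 76502015 to 76511953, minus strand), the acyltransferase that completes triglyceride in the endoplasmic reticulum, had 182, 142, 171 and 178 normalized counts in WT replicates 1, 2, 3 and 5 and 174, 160.2, 218 and 155 in CD1d-KO. The CD1d-KO library was higher in pairs 2 and 3 and lower in pairs 1 and 5. The log2 fold change of 0.06 (SE 0.12, 95% interval -0.22 to 0.35, adjusted p = 0.896 in edgeR) therefore had no steady direction, and without replicate 3 it was -0.034. Without replicate 1 it was 0.11.

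*Dgat2* (ENSMUSG00000030747, chromosome 7 from 99153658 to 99182719, minus strand), the second enzyme for the same step, had few reads. It had 18.7, 24.7, 25.2 and 14.8 normalized counts in WT replicates 1, 2, 3 and 5 and 22, 43.5, 18.8 and 19.8 in CD1d-KO. CD1d-KO replicate 2 alone lay outside the WT range. The log2 fold change was 0.28 (SE 0.30, 95% interval -0.42 to 0.98, adjusted p = 0.772 in edgeR), the widest interval of the 8 genes, which takes in 1.5-fold upward. It was 0.30 without replicate 1 and 0.079 without replicate 2.

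Of the lipases, *Pnpla2* (ENSMUSG00000025509, chromosome 7 from 141455198 to 141460743, plus strand), which starts the hydrolysis of triglyceride, did not separate the genotypes. It had 1338, 1445, 1170.3 and 1520.1 normalized counts in WT replicates 1, 2, 3 and 5 and 1454, 1494, 1200 and 1236 in CD1d-KO. The CD1d-KO library was slightly higher in pairs 1, 2 and 3 and lower in pair 5, and both genotypes were lowest in replicate 3, where *Hilpda* was highest. The log2 fold change was -0.02 (SE 0.08, 95% interval -0.22 to 0.17, adjusted p = 0.945 in edgeR), -0.072 without replicate 1 and 0.068 without replicate 5.

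*Nceh1* (ENSMUSG00000027698, chromosome 3 from 27182965 to 27284608, plus strand), which hydrolyses cholesteryl esters outside the lysosome, had 406, 573, 991 and 504 normalized counts in WT replicates 1, 2, 3 and 5 and 528, 771, 973 and 743 in CD1d-KO. CD1d-KO was higher in pairs 1, 2 and 5, with log2 ratios of 0.38, 0.43 and 0.56, and pair 3, the highest of both genotypes, was nearly equal (-0.027). The means were 618 ± 258 and 754 ± 182 (SD, n = 4). The fold change was 1.26 (95% interval 1.07 to 1.48), or 0.33 on the log2 scale (SE 0.10). It did not pass the threshold (adjusted p = 0.233 in edgeR and 0.274 in DESeq2). It was 0.32 without replicate 1 and 0.46 without replicate 3. The alternatives gave adjusted p-values from 0.0813, with no filter on low counts, to 0.997. *Gm37191* overlaps *Nceh1* on the same strand.

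The level of *Soat1* over that of *Nceh1*, the enzymes that make and break cholesteryl esters, was 10.1, 8.75, 5.62 and 10.2 in TPM in WT replicates 1, 2, 3 and 5 and 8.14, 7.56, 4.42 and 6.81 in CD1d-KO. The means were 8.67 ± 2.13 and 6.73 ± 1.63 (SD, n = 4). The ratio was lower in the CD1d-KO library in each pair, but the genotypes overlapped, and replicate 3 was the lowest of both. The pairs include pair 1, whose CD1d-KO library went against its label in *Cd1d1*. How often other ratios are lower in each pair was not counted, and the ratio was not tested.

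*Mgll* (ENSMUSG00000033174, chromosome 6 from 88724412 to 88828360, plus strand), the monoacylglycerol lipase that ends triglyceride breakdown, was not tested. It had 0 reads in all 4 WT libraries and 2, 3, 0 and 1 reads in CD1d-KO replicates 1, 2, 3 and 5. All 8 values are at or under the limit of 3 counts, so no fold is given. Its span holds 5 other annotated genes.

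None of the other genes of lipid storage passed the threshold either. Of 38 further genes on a list by role, 25 had enough counts, and 0 were called by edgeR or DESeq2. Their median log2 fold change was -0.03 (range -0.52 to 0.95), with 12 higher and 13 lower in CD1d-KO. At an unadjusted p under 0.05, 3 were higher (*Gpat3*, *Lpin2* and *Soat2*) and 2 lower (*Lpin1* and *Lipa*), beside the same backgrounds of 7.35% and 5.01%. In all 4 pairs, 3 were higher in CD1d-KO (*Gpat3*, *Lpin2* and *Abhd6*) and 1 was lower (*Lipa*), beside 10.6% and 10.1% of all tested genes. The interval lay within 1.5-fold for 19 of the 25.

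Of the 12 further coat proteins and regulators, 6 were tested and 0 were called, with a median log2 fold change of -0.08. *Ldah*, a droplet hydrolase, averaged 427 ± 23.8 normalized counts in the WT and 392 ± 70.9 in the CD1d-KO libraries (SD, n = 4, log2 fold change -0.14, adjusted p = 0.621 in edgeR). *Rab18*, a small GTPase on droplets, and *Hsd17b11*, a droplet dehydrogenase, both had a log2 fold change of -0.09 (adjusted p = 0.671 and 0.697 in edgeR). These 3 values rested in part on single pairs, since *Ldah* was -0.053 and *Rab18* -0.052 without replicate 3, and *Hsd17b11* was -0.02 without replicate 2. *Plin5*, *Cidea*, *Cideb*, *Cidec*, *G0s2* and *Hsd17b13* had too few reads to test, among them 0 in every library for *Cidea* and *Cidec*, coat proteins of brown and white adipocytes.

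Of the 5 genes for droplet formation, 4 were tested and 0 were called. *Pcyt1a*, which limits the supply of phosphatidylcholine for growing droplets, had 1410.3 ± 314 and 1558 ± 310 normalized counts (log2 fold change 0.15, adjusted p = 0.476 in edgeR). *Bscl2*, which encodes seipin, had 329 ± 59.2 and 354 ± 46.8 (0.12, adjusted p = 0.752 in edgeR). *Fitm2* had 113 ± 26.4 and 101 ± 12.6 (-0.16, adjusted p = 0.784 in edgeR). Without replicate 1 the log2 fold changes were 0.097 for *Pcyt1a*, 0.014 for *Bscl2* and -0.043 for *Fitm2*. Without replicate 5 they were 0.13, 0.26 and -0.021.

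The acylation genes held the widest differences. *Gpat3*, a glycerol-3-phosphate acyltransferase of the endoplasmic reticulum, had 33.7, 27.9, 93.7 and 29.5 normalized counts in WT replicates 1, 2, 3 and 5 and 58.4, 108, 113 and 58.3 in CD1d-KO. It was higher in CD1d-KO in 4 of 4 pairs, and WT replicate 3 alone reached into the CD1d-KO range. Its log2 fold change was 0.95 (SE 0.27, adjusted p = 0.213 in edgeR), 1.0 without replicate 1 and 0.66 without replicate 2. *Soat2*, the second sterol acyltransferase, had 73.4, 97.8, 275 and 83.3 in WT and 117, 143, 251 and 130 in CD1d-KO, with replicate 3 again the highest of both genotypes. The log2 fold change of *Soat2* was 0.41 (SE 0.16, adjusted p = 0.368 in edgeR). It was 0.32 without replicate 1, 0.62 without replicate 3 and 0.28 without the pairing by replicate number. *Lpin2*, a phosphatidate phosphatase, was 481 ± 68.1 in WT and 573 ± 53.3 in CD1d-KO (0.26, SE 0.09, adjusted p = 0.271 in edgeR, higher in 4 of 4 pairs, and 0.25 without replicate 1). *Lpin1*, of the same family and named after its value was seen, was 254 ± 152 and 170 ± 98.9 (-0.52, SE 0.22, adjusted p = 0.388 in edgeR). Its log2 ratios were -0.26, -0.58, 0.24 and -1.29 in pairs 1, 2, 3 and 5, so pair 3 went the other way. Its log2 fold change was -0.63 without replicate 1 and -0.24 without replicate 5.

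Of the 7 further hydrolases, 4 were tested and 0 were called. *Lipa*, the lysosomal acid lipase, had 16679, 12564, 18232 and 14449 normalized counts in WT replicates 1, 2, 3 and 5 and 13683, 12562, 10631 and 12420.5 in CD1d-KO. It was lower in CD1d-KO in 4 of 4 pairs, nearly equal in pair 2 and most apart in pair 3. The log2 fold change was -0.32 (SE 0.13, adjusted p = 0.359 in edgeR), -0.33 without replicate 1 and -0.17 without replicate 3. *Lipe*, the hormone-sensitive lipase, was 370 ± 17.9 and 380 ± 42.9 (0.03, adjusted p = 0.921 in edgeR), and *Abhd6*, a monoacylglycerol lipase, was 24.3 ± 6.84 and 28.4 ± 7.39 (0.22, adjusted p = 0.773 in edgeR).

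**Figure D4:**
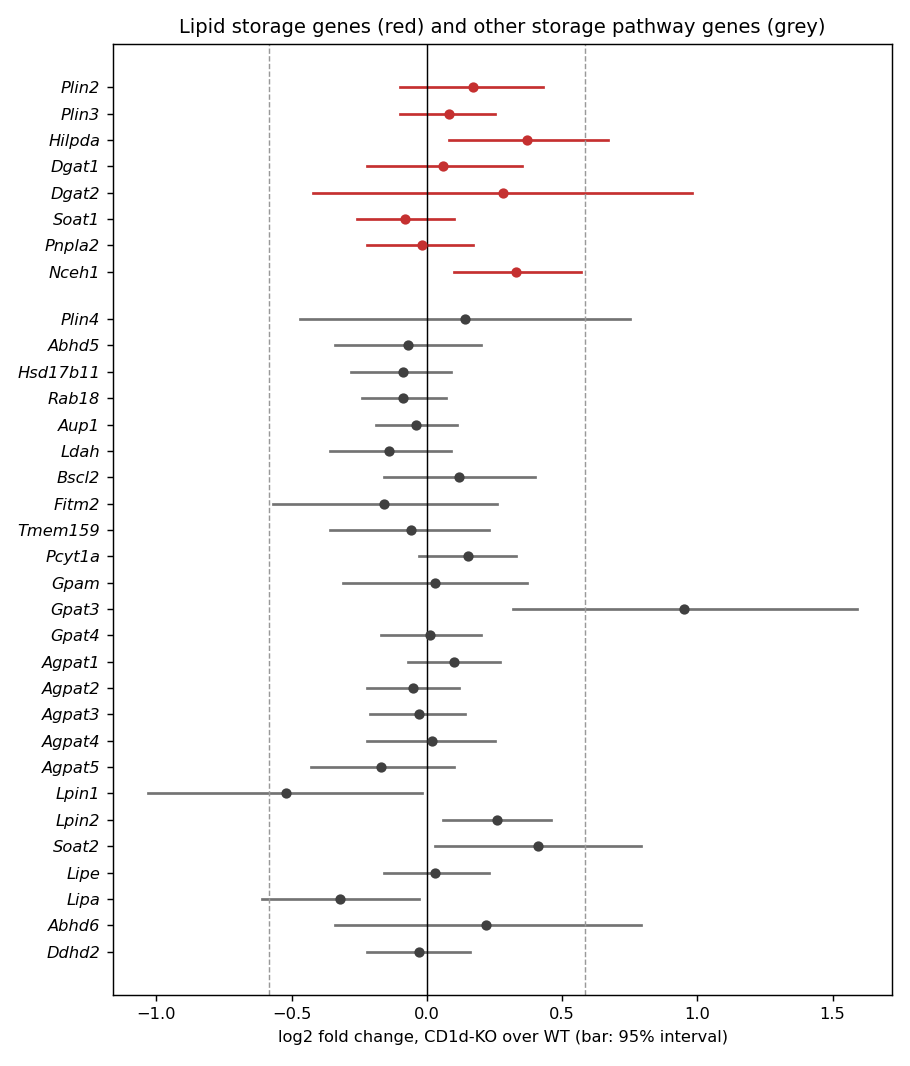
Log2 fold change of CD1d-KO over WT from edgeR with its 95% interval, for the 8 tested storage genes (red) and 25 further genes of the pathway (grey). Dashed lines mark 1.5-fold in either direction. *Hilpda* (0.37), *Nceh1* (0.33), *Gpat3* (0.95), *Lpin2* (0.26) and *Soat2* (0.41) have intervals above 0, *Lpin1* (-0.52) and *Lipa* (-0.32) below 0, and no gene passed the threshold after adjustment.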

How the data were processed

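The labels call the libraries biological replicates, and the methods give 4 mice per genotype. The authors trimmed single-end Illumina reads with Cutadapt, aligned them to GRCm38 (Ensembl) with STAR 2.5.2a and quantified genes with RSEM 1.3.0. They deposited expected counts, which are estimated and not normalized, TPM and FPKM for each gene. RSEM divides reads shared by near copies, so 27.9% to 29.9% of the counts above 0 were not whole, but those of the 10 storage genes lay within 0.08 of a whole number.

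Expected counts were rounded and analysed with edgeR 4.0.16 in R 4.3.3 (filterByExpr, TMM, quasi-likelihood test, model of genotype and replicate number, Benjamini-Hochberg over 13040 genes). Intervals are 95%. Calls used the thresholds of the study's methods. TPM were used as deposited for levels between genes, and the deposited FPKM were not used. Alternatives used DESeq2 1.42.0 and limma 3.58.1. Symbols and coordinates came from GENCODE M21, which held 99.09% of the gene IDs, and promoters from RefSeq (GRCm38.p6). The code was tested on simulated data. The 28 pairs of libraries differed by at least 14.2 in chi-square per degree of freedom, so none was a copy.

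Replicate numbers pair the libraries: deviations from the genotype means of same-numbered libraries correlated across genes (r = 0.487, 0.387, 0.505 and 0.207 for 1, 2, 3 and 5). The highest r with a library of another number was -0.015, 0.025, 0.059 and 0.22, so number 5 did not stand out from the others. The storage genes, the further genes and the markers were chosen with earlier results of these data known. All 10 storage genes were named, and of the others those called or up to 3 per role with the smallest p.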

Additional observations from a re-analysis of the deposited data

Results flagged for a closer look

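Within each genotype, the gap between the highest or lowest library and its neighbour was compared with the range of the 4 libraries (Dixon's test at its 95% critical value). It was exceeded in 7 of 48 groups of 4, where chance gives about 1 in 20. *Hilpda* had 376 normalized counts in WT replicate 3 against 95.9 to 135 in the other WT libraries. *Gpat3* (93.7 against 27.9 to 33.7) and *Soat2* (275 against 73.4 to 97.8) were high in the same library. In the CD1d-KO library of replicate 3, *Rab18* had 1403 against 1225 to 1242. *Dgat2* had 43.5 in CD1d-KO replicate 2 against 18.8 to 22. *Plin1* had 2.11 in WT replicate 5, which is 2 reads, against 0. *Cd1d1* had 60.7 in the library labelled CD1d-KO replicate 1 with 0 to 1.14 in the rest of its group.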

How the results depend on the processing

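None of the 8 tested storage genes and none of the 25 further genes was called under any of the 13 alternatives of fit or threshold, and the levels in TPM kept their values. The number of genes called over the whole table moved from 5 to 103 with DESeq2 (70 higher in CD1d-KO), to 236 with no filter on low counts (175 higher), to 48 at an adjusted p under 0.05 (33 higher) and to 3 with limma-trend on log2(TPM + 1), and ranged from 3 to 22 when each replicate was left out, with 22 without replicate 2 and 3 without replicate 3 or 5. Without the pairing by replicate number it was 3, and no call among the storage genes changed. The cause was not tested. *Dgat1* changed direction with limma-trend (-0.001 on the log2 scale). With each replicate left out, *Dgat1* ranged from -0.034 (without replicate 3) to 0.15, *Pnpla2* from -0.072 to 0.068 (without replicate 5) and *Lipe* from -0.016 (without replicate 5) to 0.082. *Cd1d1* was not called in the main edgeR fit (-3.42, adjusted p = 0.233 in edgeR). It passed the threshold with DESeq2 (-6.35), with no filter (-3.42) and without replicate 1 (-7.27). *Hilpda* and *Nceh1* stayed higher in CD1d-KO under all 11 alternatives of the fit, at log2 fold changes of 0.29 to 0.49 and 0.26 to 0.46. Depth limits *Plin1* and *Mgll*, which could not be compared, and *Dgat2*.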
